A study of Papio sp. with 35 samples.

Results

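The estrogen-related receptors and the PGC-1 coactivators were measured, with the factors that act beside and below them, by RNA sequencing of left ventricle from 35 female baboons. The set held 10 of the 35366 gene names in the deposited count table, found by symbol, with the lines of each gene summed. The receptors were ESRRA, ESRRB and ESRRG, the coactivators PPARGC1A, PPARGC1B and PPRC1, and the other factors PPARA, NRF1, GABPA and TFAM. The set was chosen by values measured in these same libraries, namely the levels, the opposite slopes of ESRRB and PPRC1 with age, and the relation of the members to genes of the respiratory chain. Those values are therefore given as a description with no test. All 10 passed the filter on low counts and were among the 16202 genes fitted for age.

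The animals, labelled Papio sp., were normal females fed chow without restriction, and the tissue was taken at necropsy and frozen. Labels of the animals differ in age alone, and the question is how expression differs across adult life. Levels are given by age band, with 11 libraries from animals of 7.5 to 11.9 years (young), 10 from animals of 12 to 15.7 years (middle) and 14 from animals of 17.8 to 22.1 years (old). Each library was made from total RNA of a separate animal, so spreads below are between animals.

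Library totals lay between 10579226 and 23948194 counts, and mitochondrially encoded genes took 12.3% to 30.7% of them. The extraction text names liver where the tissue label names left ventricle. The 22 cardiomyocyte markers summed to between 154045 and 248770 CPM (counts scaled to library size, with TMM factors), and the 6 matched hepatocyte markers to between 0.768 and 16.8 CPM. Sheet numbers in the sample descriptions fall in 4 runs, of which the second holds 17 libraries and spans 8.7 to 22.1 years; they are treated as possible batches. Age was fitted by edgeR's quasi-likelihood test, with p adjusted by Benjamini-Hochberg and a threshold of 0.05. Of the 16202 genes 5 rose (0.0309%) and 2 fell (0.0123%) with age, together 0.0432%.

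As background, estrogen-related receptors are orphan nuclear receptors that bind DNA without a known natural hormone and depend on coactivators for their activity. PGC-1 proteins are such coactivators, and together with ERR, PPAR alpha and the nuclear respiratory factors they raise transcription of genes for fatty acid oxidation, the tricarboxylic acid cycle and the respiratory chain. The heart, which runs mainly on fatty acids, is among the tissues richest in these proteins.

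Levels of different genes were compared per transcript length, as TPM (counts per base of transcript, scaled to the same total in each library) computed from the deposited counts and lengths. ESRRA, for the receptor ERR alpha, had the highest mean, at 44.2 ± 5.98 TPM (SD, n = 35). PPARGC1A, for PGC-1 alpha, an inducible coactivator, stood at 43.4 ± 33.0 TPM. ESRRA was above PPARGC1A in 23 of 35 libraries, so this pair did not separate beyond its spread. PPARGC1B, for PGC-1 beta, a close relative of PGC-1 alpha, had 27.7 ± 8.50 TPM and was below PPARGC1A in 18 libraries. PPARA, the fatty acid receptor PPAR alpha, had 24.9 ± 4.196 TPM and was below PPARGC1B in 23 libraries. The coactivator PPARGC1B thus overlapped its neighbours on both sides.

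Further down, ESRRG, for ERR gamma, which is abundant in heart and other oxidative tissues, had 17.9 ± 2.80 TPM and was below PPARA in 34 of 35 libraries. GABPA, the DNA-binding subunit of nuclear respiratory factor 2, had 13.8 ± 2.16 TPM, below ESRRG in 34 libraries. NRF1, nuclear respiratory factor 1, had 12.1 ± 1.56 TPM and was below GABPA in 30. These steps were small but held in most animals. TFAM, which packages mitochondrial DNA and starts its transcription, had 8.50 ± 1.45 TPM and was below NRF1 in 33 libraries. ESRRB, for ERR beta, known best from early development and the inner ear, had 5.19 ± 1.81 TPM and was below TFAM in 33. The lowest mean belonged to PPRC1, the PGC-1-related coactivator PRC, at 5.06 ± 1.83 TPM, and ESRRB was above it in 22 libraries only. Among all genes fitted, the mean TPM of ESRRA was above that of 88.8% of genes, and that of PPRC1 above that of 41.0%.

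The members differed widely in how much they varied between animals. PPARGC1A had a coefficient of variation of 81.6% in CPM, against 7.82% for NRF1 and 8.71% for GABPA. The dispersion fitted for PPARGC1A exceeded that of 93.5% of genes, and that of NRF1 exceeded that of 2.61%. ESRRB had 33.1% and PPRC1 31.98%, where counting alone would give about 11.8% and 6.84%. ESRRB was the thinnest member, with 8 to 117 counts per library.

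**Figure D1:**
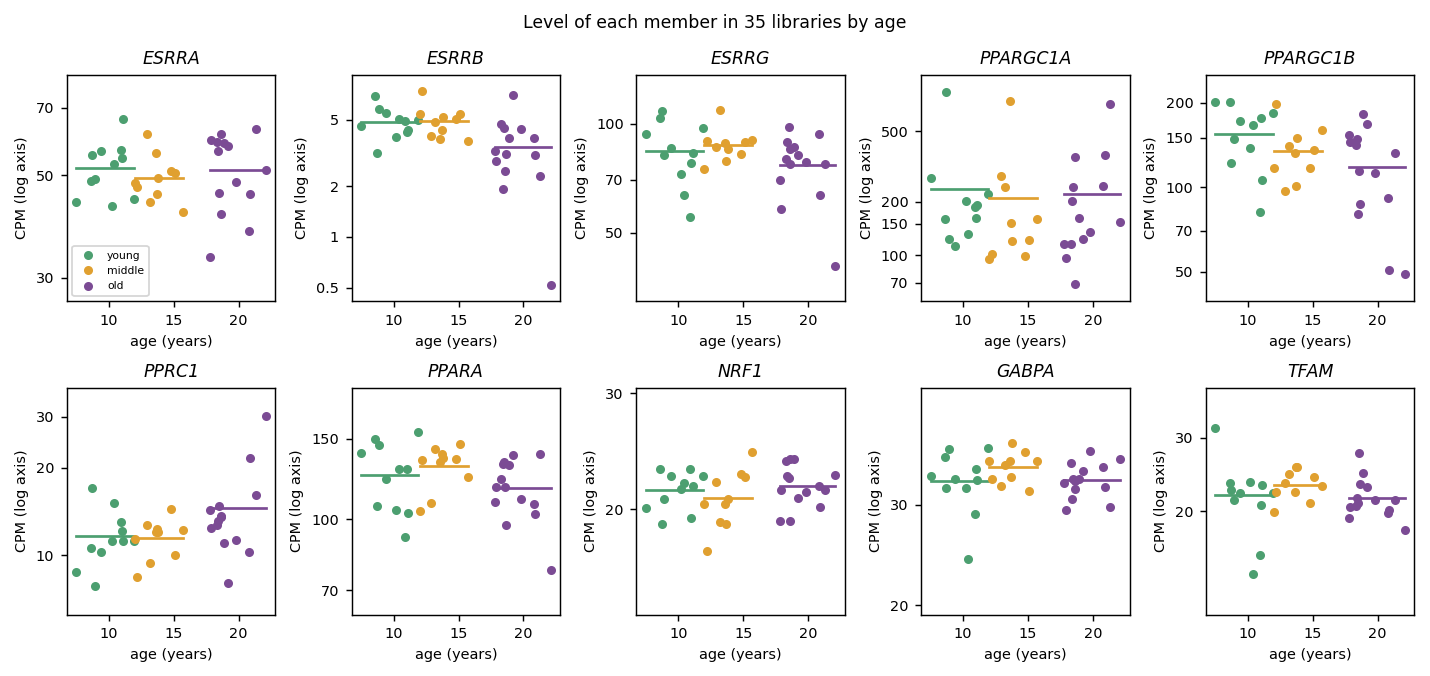
CPM of each member (log axis) against age in years, with 1 point per library, coloured by age band, and horizontal lines at the band means. Points of the bands overlap in every panel; ESRRB is lowest at 0.518 CPM and PPRC1 highest at 30.2 CPM in the same library, that of the oldest animal, and 3 points of PPARGC1A lie above 700 CPM, between 706 and 833 CPM.

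Among the receptors, ESRRA had a slope with age near 0. Its lowest, median and highest values were 42.8, 52.8 and 66.2 CPM in the young band, 41.7, 48.7 and 61.4 CPM in the middle band and 33.4, 54.0 and 62.9 CPM in the old band. The bands overlapped over most of their range, and the lowest library was old replicate 14. Its slope was 0.00092 ± 0.0876 log2 per 10 years (SE, n = 35). The shortest of its 3 transcripts, variant X1 of 2251 bases, held 86.5% ± 2.84 (SD, n = 35) of its counts. The files place ESRRA at bases 9799253 to 9809615 on the minus strand of its reference sequence, where it overlaps TRMT112 on the other strand. TRMT112 had a mean of 309 counts, and whether reads were assigned by strand is not given in the sources used here.

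ESRRB was the member with the steepest negative slope. It had a lowest, median and highest value of 3.15, 4.91 and 6.92 CPM in the young band, 3.73, 4.95 and 7.42 CPM in the middle band, and 0.518, 3.19 and 6.96 CPM in the old band. The band means were 4.85 ± 1.003 (SD, n = 11), 4.92 ± 1.08 (n = 10) and 3.41 ± 1.52 CPM (n = 14). The young and middle bands covered much the same range, and the old band reached lower while still overlapping both. The slope was −0.64 ± 0.201 log2 per 10 years (SE, n = 35), or 0.644-fold, and −0.45 without old replicates 1 and 11. ESRRB lies at bases 133042114 to 133229609 on the plus strand of its reference sequence and is counted over a single transcript of 1671 bases. Levels in whole tissue cannot tell apart fewer cells of a type and less RNA per cell.

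ESRRG showed 55.2, 82.8 and 108 CPM as lowest, median and highest values in the young band, 74.7, 87.3 and 109 CPM in the middle band and 40.4, 78.8 and 97.7 CPM in the old band. The lowest library of all was old replicate 11, and the bands overlapped. Its slope was −0.19 ± 0.103 log2 per 10 years, −0.10 without old replicate 11 and −0.07 without old replicates 1 and 11. Counts of ESRRG were spread over 14 transcripts, the largest being variant X3 with 19.6% ± 4.85, variant X14 with 16.4% ± 8.82 and variant X10 with 14.2% ± 3.51 (SD, n = 35). The gene covers bases 144655976 to 145302889 on the plus strand of its reference sequence.

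Of the coactivators, PPARGC1A had no common trend but 3 libraries far above the others. Its lowest, median and highest values were 112, 187 and 833 CPM in the young band, 94.7, 137 and 736 CPM in the middle band and 68.7, 158 and 706 CPM in the old band. Each band held 1 of the 3 high libraries, those of young replicate 9, middle replicate 4 and old replicate 13, and the next library stood at 366 CPM. The slope, −0.01 ± 0.335 log2 per 10 years, had the widest error of the 10 members and ran from −0.37 without old replicate 13 to 0.41 without young replicate 9. PPARGC1A is counted over a single transcript of 10157 bases, on the minus strand at bases 22658053 to 23133971 of its reference sequence.

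PPARGC1B had a negative slope second in size to that of ESRRB. It had a lowest, median and highest value of 81.2, 167 and 202 CPM in the young band, 96.8, 134 and 197 CPM in the middle band and 49.0, 123 and 182 CPM in the old band. The 3 bands overlapped, and the pair of lowest libraries, old replicates 11 and 1 at 49.0 and 50.6 CPM, stood apart from the rest of the old band. Its slope was −0.49 ± 0.168 log2 per 10 years and −0.29 without those 2 libraries. Variant X1 held 70.8% ± 5.74 and variant X3 24.98% ± 5.04 of its counts (SD, n = 35), at bases 144120994 to 144259268 on the plus strand of its reference sequence.

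PPRC1, which in cultured cells is induced by serum and cell stress, was the member with the steepest positive slope. It had 7.79, 11.2 and 17.1 CPM as lowest, median and highest values in the young band, 8.41, 12.0 and 14.4 CPM in the middle band and 7.99, 13.3 and 30.2 CPM in the old band. Means were 11.7 ± 2.65 CPM (SD, n = 11), 11.5 ± 1.76 CPM (n = 10) and 14.5 ± 5.51 CPM (n = 14). Old replicates 11 and 1, at 30.2 and 21.6 CPM, were the highest of all 35 libraries, and the remaining old libraries lay within the young range. The slope was 0.44 ± 0.134 log2 per 10 years (SE, n = 35), or 1.36-fold, and 0.16 without those 2 libraries. PPRC1 lies at bases 94371310 to 94388641 on the plus strand of its reference sequence.

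The other factors had smaller slopes. PPARA had a median of 129 CPM in the young band (91.4 to 155), 135 in the middle (104 to 146) and 118 in the old (77.5 to 139), with a slope of −0.14 ± 0.0867, or −0.07 without old replicate 11 and −0.04 without old replicates 1 and 11. NRF1 had medians of 21.7, 20.5 and 21.5 CPM in the young, middle and old bands, within 17.3 to 24.4 CPM over all libraries, and a slope of 0.05 ± 0.0487. The bands of both genes overlapped almost completely. GABPA had medians of 33.3, 35.5 and 33.2 CPM and a slope of −0.0030 ± 0.0543. TFAM had medians of 22.1, 23.2 and 21.1 CPM and a slope of −0.08 ± 0.0808, which ran from −0.12 without young replicate 4 to −0.0076 without young replicate 11. For GABPA and TFAM the lowest library was a young one, young replicate 4. GABPA shares its locus with ATP5J, a subunit of ATP synthase on the opposite strand with a mean of 2741 counts, and TFAM has a near copy, LOC101015737, with a mean of 59.99 counts against 374 for TFAM, so reads of these 2 members could have been split or shared.

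Across the 10 members 7 slopes were negative and 3 positive, with a median of −0.05 log2 per 10 years, beside a median of 0.0012 over all 16202 genes, of which 8033 were negative. For reference only, edgeR's quasi-likelihood test over all genes called 0 of 10 members, where it called 0.0432% of all genes, and 3 members were at an unadjusted p under 0.05, as were 12.9% of all genes. The 13 other settings tried, DESeq2, limma-voom and limma trend among them, also called 0 members. Because the slopes of ESRRB and PPRC1 led to the choice of the set, these counts are no test of it and nothing is read from them. The slope of ESRRB was lower than that of all but 0.809% of genes, that of PPARGC1B than all but 1.65%, and PPRC1 lay above 94.1% of genes.

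ESRRB and PPRC1 mirrored each other from library to library. Pearson's r of their log2 CPM was −0.78 and Spearman's rho −0.63 over the 35 libraries, given as a description. Of 16201 other genes only 1 had a lower r with ESRRB than PPRC1 had. The pair was chosen for its opposite slopes in these libraries, so this rank is a description and no test. It includes old replicate 11, where ESRRB rested on 8 counts, and no rank was taken without that library. With age held constant r was −0.72, and within the second sheet run it was −0.85 (n = 17). It was −0.62 without old replicates 1 and 11 and −0.68 with the cardiomyocyte marker score held constant. Both genes were read from the same libraries, so total depth and cell makeup are shared by the 2 values of each point.

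**Figure D2:**
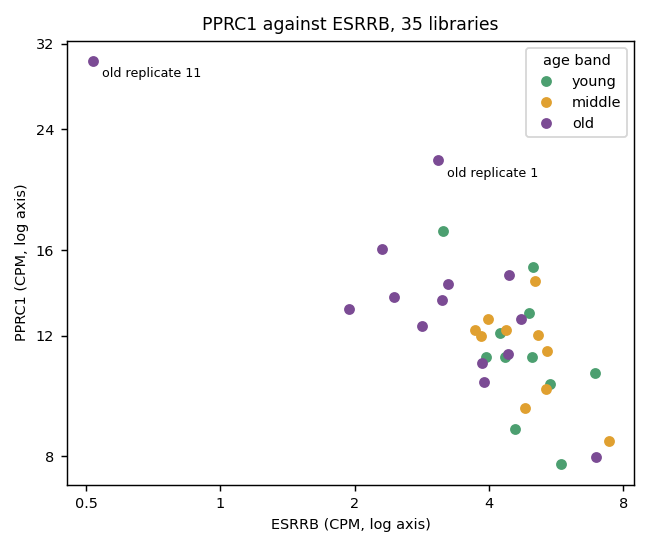
PPRC1 against ESRRB in CPM (both axes log) for the 35 libraries, coloured by age band. Points descend from high ESRRB and low PPRC1 to old replicate 11, at 0.518 CPM of ESRRB and 30.2 CPM of PPRC1.

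The ratio of PPRC1 to ESRRB in CPM put this in a single value. It had a lowest, median and highest value of 1.34, 2.57 and 5.41 in the young band, 1.13, 2.57 and 3.28 in the middle band and 1.15, 4.34 and 58.4 in the old band. The young and middle medians were the same to 3 digits, and the old band ran from the low end of the others to the highest value of all. The top value came from old replicate 11, where ESRRB rested on 8 counts.

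Old replicates 1 and 11, from animals of 20.9 and 22.1 years, stood apart in more than these members. Old replicate 11 had the lowest cardiomyocyte marker score of the 35 libraries, the highest fibroblast and macrophage marker scores, and the second highest adipocyte and immediate early gene scores. Old replicate 1 had the third lowest cardiomyocyte and the highest endothelial marker score. Such scores were not particular to this pair. Old replicate 14 had a cardiomyocyte score of −1.58, beside −1.63 in old replicate 11 and −0.82 in old replicate 1. It had a fibroblast score of 1.43 and an adipocyte score of 2.16, with ESRRB at 3.24 CPM and PPRC1 at 14.3 CPM. In the young, middle and old bands the 12 fibroblast markers summed to 1152 to 2215, 1458 to 2216 and 1222 to 3026 CPM, and the 10 macrophage markers to 45.7 to 207, 60.8 to 148 and 47.996 to 261 CPM, with none at 0 in every library of a band. The part of these differences in the member values was not tested. With the cardiomyocyte score as a term the slope was −0.47 for ESRRB, −0.39 for PPARGC1B and 0.20 for PPRC1. With sheet run as a term the slopes were −0.61, −0.52 and 0.51, and within the second run −0.68, −0.53 and 0.57.

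Not all members moved with each other. Of the 45 pairs 24 had a positive r, with a median of 0.014. Some receptors and PPARGC1B ran together, with r of 0.71 for PPARGC1B and PPARA, 0.64 for ESRRG and PPARA, 0.56 for ESRRB and PPARA and 0.55 for ESRRB and ESRRG. PPRC1 was opposed to these genes, at −0.69 with PPARGC1B, −0.58 with PPARA and −0.57 with ESRRG. Without old replicates 1 and 11 these values shrank, to 0.59 for PPARGC1B and PPARA, 0.14 for ESRRB and ESRRG and −0.22 for ESRRG and PPRC1. PPARGC1A, the best known of the coactivators, had r of −0.23 with PPARGC1B and 0.01 with ESRRA.

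ESRRA and its relatives ESRRB and ESRRG were close to unrelated, at r of −0.10 and −0.14. With the cardiomyocyte marker score held constant, r became −0.67 between ESRRA and ESRRB and 0.63 between ESRRA and PPRC1. That score had r of 0.61 with ESRRA, 0.56 with ESRRB and −0.56 with PPRC1. Holding constant a score that both genes of a pair follow shifts r by itself, and no background over other genes was taken. ESRRB and ESRRG had r of 0.55 and rho of 0.25 over the 35 libraries. Without old replicates 1 and 11 their r was 0.14, and ESRRA had −0.14 with ESRRB and −0.21 with ESRRG.

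The respiratory chain was summarised by a score, the mean over 73 nuclear genes of complexes I to V of each gene's log2 CPM in units of its SD over libraries. ESRRA followed this score most closely, with r of 0.64 and rho of 0.59 over 35 libraries, above 96.8% of 16129 other genes, and it had a positive r with all 73 chain genes. TFAM had r of 0.35, ESRRG 0.35, PPARGC1B 0.34, PPARA 0.30, ESRRB 0.26 and PPARGC1A 0.17. PPRC1 ran the other way, at −0.33, and had a positive r with 0 of 73 chain genes. NRF1 and GABPA, known for their binding sites in promoters of chain genes, had r of −0.03 and −0.14. The 5th and 95th percentiles of r over the other genes were −0.50 and 0.57, so of the 10 members ESRRA alone lay outside that span.

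**Figure D3:**
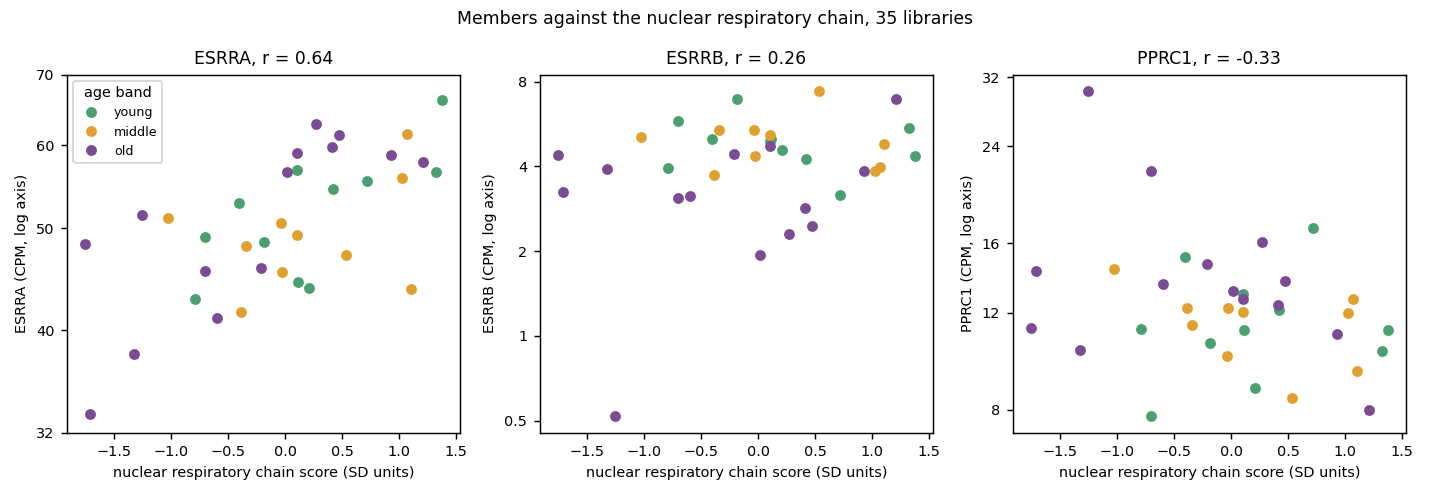
CPM (log axis) of ESRRA, ESRRB and PPRC1 against the nuclear respiratory chain score in SD units, with 1 point per library coloured by age band. ESRRA climbs along the score (r = 0.64), while ESRRB (r = 0.26) and PPRC1 (r = −0.33) show wide clouds with old replicate 11 far below or above.

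By complex, r of ESRRA was 0.66 with complex I (36 genes), 0.56 with complex II (3), 0.67 with complex III (7), 0.61 with complex IV (12) and 0.58 with complex V (15). ESRRG was nearer to complexes II and V, both at 0.43, than to complex III, at 0.25. PPRC1 was negative with each complex, between −0.25 for III and −0.37 for IV. ESRRA had the highest and PPRC1 the lowest r with each of the 5 complexes.

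The chain score itself moved with other measures of the libraries. Its r was 0.81 with the cardiomyocyte marker score, −0.56 with the number of genes detected and −0.33 with age. ESRRA had r of 0.61 with the cardiomyocyte score, −0.60 with the number of genes detected and −0.58 with the fibroblast score, and the part of these in its relation to the chain was not tested. With the cardiomyocyte score held constant r with the chain was 0.31 for ESRRA, 0.32 for PPARGC1A and 0.32 for TFAM. It changed sign to −0.41 for ESRRB, 0.26 for PPRC1 and −0.06 for PPARGC1B, whose r with the cardiomyocyte score was 0.56, −0.56 and 0.45. Holding constant a score that runs with both the gene and the chain shifts r by itself, and no background over other genes was taken. With age held constant r with the chain was 0.67 for ESRRA, 0.10 for ESRRB and −0.22 for PPRC1. Within the second sheet run it was 0.66, 0.37 and −0.44 (n = 17), and without old replicates 1 and 11 it was 0.66, 0.07 and −0.17. Without the pair of libraries farthest in the chain score, old replicates 12 and 14, it was 0.60, 0.28 and −0.37.

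**Figure D4:**
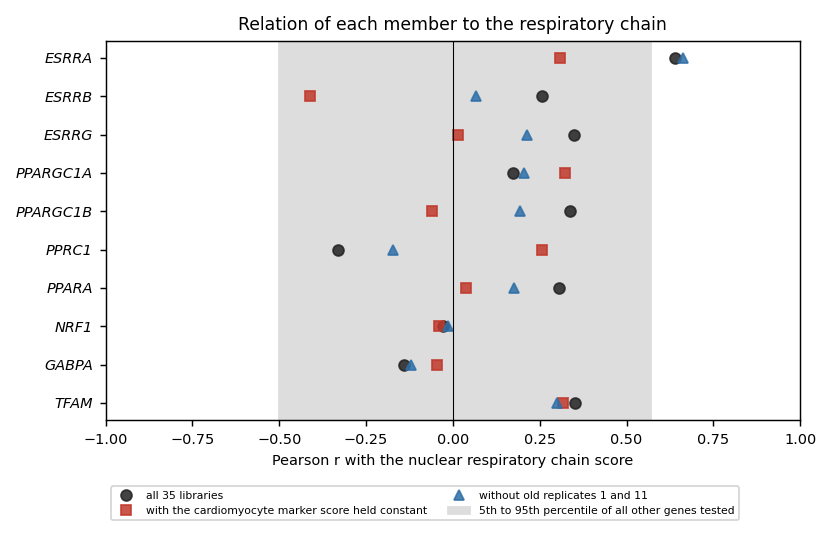
Pearson r of each member with the nuclear respiratory chain score over all 35 libraries (circles), with the cardiomyocyte marker score held constant (squares) and without old replicates 1 and 11 (triangles). Grey marks the 5th to 95th percentile of r of the other genes over all 35 libraries, a background that matches the circles only. Only the circle and triangle of ESRRA lie beyond the grey span, and the squares of ESRRB, PPRC1 and PPARGC1B fall on the other side of 0 from their circles.

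Scores of 6 other gene groups were fitted over all genes with edgeR's quasi-likelihood test. Of these scores 4 ran closely with the chain score, on which the set was chosen, so their member values are a description given without p. The same holds for the members called on these 4 scores, and for calls kept or lost in other settings. Those counts are no test of the set. Cardiomyocyte markers are the structural and contractile genes of heart muscle cells, and their score had r of 0.81 with the chain score. On it 3 of 10 members were called, 2 higher and 1 lower, in a fit that called 23.1% of all genes (10.1% higher, 13% lower). ESRRA had a slope of 0.13 ± 0.0305 log2 per SD of the score (SE, n = 35), ESRRB of 0.29 ± 0.0891 and PPRC1 of −0.23 ± 0.0505. ESRRA had a positive r with 21 of 22 markers, ESRRB with 19 and PPRC1 with 1. Without old replicates 1 and 11 the calls of ESRRB (slope 0.16) and PPRC1 (slope −0.07) were lost, and that of ESRRA was the 1 left.

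Fatty acid oxidation is the main fuel pathway of heart, and its score had r of 0.77 with the chain score. Of the 10 members 2 were called in a fit that called 22.1% of genes (9.35% higher, 12.8% lower). ESRRA had a slope of 0.12 ± 0.0319 log2 per SD and PPRC1 of −0.17 ± 0.0585. The share of members called was near the background. PPARA, the receptor best known for control of this pathway, had 0.08 ± 0.0368 and PPARGC1A 0.05 ± 0.158, neither called. With the cardiomyocyte score as a term 0 members were called (ESRRA 0.05), and without old replicates 1 and 11, which were also the pair farthest out in this score, PPRC1 had −0.04 and was not called.

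The scores of the tricarboxylic acid cycle and the mitochondrial ribosome ran with the chain score at r of 0.97 and 0.96, so their fits nearly repeat the relation used to choose the set. On the cycle 3 of 10 members were called, where 23.7% of all genes were (11.1% higher, 12.6% lower). They were ESRRA at 0.13, ESRRG at 0.11 and PPRC1 at −0.16 log2 per SD, and in the absence of old replicates 1 and 11 ESRRA was the 1 left. On the ribosome 1 of 10 was called, ESRRA at 0.14, where 23.4% of genes were (10.9% higher, 12.5% lower). PPARGC1A had the steepest slopes of the members on both, 0.35 ± 0.144 and 0.29 ± 0.139 (SE, n = 35), and was not called.

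Immediate early genes, transcription factors and feedback regulators that respond within minutes to stimuli, gave a score with r of 0.51 with age and −0.38 with the chain score. The score is thus less close to, but not free of, the measures that chose the set. Its p values are no independent test of the members. On it 2 of 10 members passed, 1 higher and 1 lower, in a fit that called 3.21% of genes (2.00% higher, 1.22% lower). PPRC1 rose with it by 0.25 ± 0.0534 log2 per SD (SE, n = 35; adjusted p = 0.00633), and PPARGC1B had −0.25 ± 0.0664 (adjusted p = 0.0308). ESRRB had −0.24 ± 0.0870 (adjusted p = 0.128). Both calls were lost with age as a term (PPRC1 0.20, adjusted p = 0.164; PPARGC1B −0.20, adjusted p = 0.275) and without old replicates 1 and 11 (PPRC1 0.13, adjusted p = 0.184; PPARGC1B −0.16, adjusted p = 0.181). The 33 genes of the list, 29 of them fitted, summed to between 830 and 2120 CPM for young, 742 and 3556 CPM for middle and 926 and 3821 CPM for old animals, and 1 of them was at 0 in every young and 1 in every middle library.

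The 13 protein genes of the mitochondrial genome are transcribed with the help of TFAM. Against their score 0 of 10 members passed by edgeR's quasi-likelihood test, in a fit that called 0.0233% of genes (0.00582% higher, 0.0175% lower). At an unadjusted p under 0.05 there were 2 members, PPARGC1A at 0.34 ± 0.157 and GABPA at −0.07 ± 0.0209 log2 per SD, and 9.45% of all genes. TFAM itself had −0.04 ± 0.0363 (adjusted p = 0.76). The score of adipocyte markers, which include genes of fat storage, had r of −0.56 with ESRRB and 0.47 with PPRC1. The 9 markers of that list, 8 of them fitted, summed to between 722 and 1291 CPM for young, 596 and 1410 CPM for middle and 643 and 1422 CPM for old animals, and none was at 0 in every library of a band. Their part in the member values was not tested.

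A departure from a straight line over the bands, old minus 2 times middle plus young, was fitted by edgeR's quasi-likelihood test. The bands are not evenly spaced in age, so this value also holds a part of the straight slope, on which the set was chosen. Of the 10 members 0 passed, against 0.0187% of 16063 genes (0.00% higher, 0.0187% lower). At an unadjusted p under 0.05 the count of members was also 0, while 5.19% of all genes were at that level. ESRRB had the largest value, −0.54 ± 0.366 log2 (SE, n = 35; adjusted p = 0.945), and PPRC1 had 0.35 ± 0.278 (adjusted p = 0.947). The quadratic term of age and DESeq2 size factors gave 0 members as well.

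Use of transcripts with age was tested by edgeR's diffSpliceDGE for the 7 members with several fitted transcripts, and 0 passed, against 0.0511% of 7822 genes. At an unadjusted p under 0.05 the count of members was 0 by the Simes test, where 2.53% of all genes were at that level, and 1 by the F test per gene, where 6.07% were, and neither called a member after adjustment. PPARA had the smallest p (adjusted p = 1.0 after rounding); its variant X3 held 52.9%, 55.4% and 57.7% of its counts in the young, middle and old bands. ESRRA variant X1 held 86.5%, 86.3% and 86.7%. PPRC1 variant X1 held 35.4%, 35.6% and 38.0%, with an SD of 11.3 over the 35 libraries.

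The genes most like 4 of the members were taken by Pearson's r of log2 CPM over 35 libraries, among 11932 genes with at least 1 CPM on average. ESRRB was most like C9H10orf71 (r of 0.83), DPF3 (0.79), LRRC10 (0.79) and IFT46 (0.79). LRRC10 is a heart-restricted actin-binding protein and DPF3 a chromatin factor of heart and muscle. Without old replicates 1 and 11 the 4 values were 0.66, 0.43, 0.48 and 0.70. PPRC1 was most like PTBP1, an RNA-binding splicing repressor (0.84), FRMD8 (0.84), EIF4A1, a helicase of translation initiation (0.82), and AMMECR1L (0.81), with values of 0.71, 0.65, 0.64 and 0.70 without those libraries. ESRRA was most like TBRG4, a mitochondrial RNA-binding protein (0.82), NPLOC4 (0.80), ABCF3 (0.80) and DNAJC11, a protein of mitochondrial cristae (0.80), and without those libraries its values were between 0.80 and 0.82.

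PPARGC1A had the closest partner of these 4 members, PRKAG2, the gamma 2 subunit of AMP-activated kinase, with r of 0.93 and rho of 0.89. The 3 libraries highest in PPARGC1A, at 833, 736 and 706 CPM, were also the 3 highest in PRKAG2, at 236, 198 and 249 CPM, and the other 32 libraries had 45.1 to 140 CPM of PRKAG2. They came from each age band and from sheet runs 1 and 2. Without these 3 libraries r was 0.86. MFSD8, a lysosomal membrane protein (0.84), RBM24, a splicing factor of muscle (0.83), and CDC14B, a phosphatase (0.82), followed, with 0.73, 0.65 and 0.75 without the 3 libraries.

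**Figure D5:**
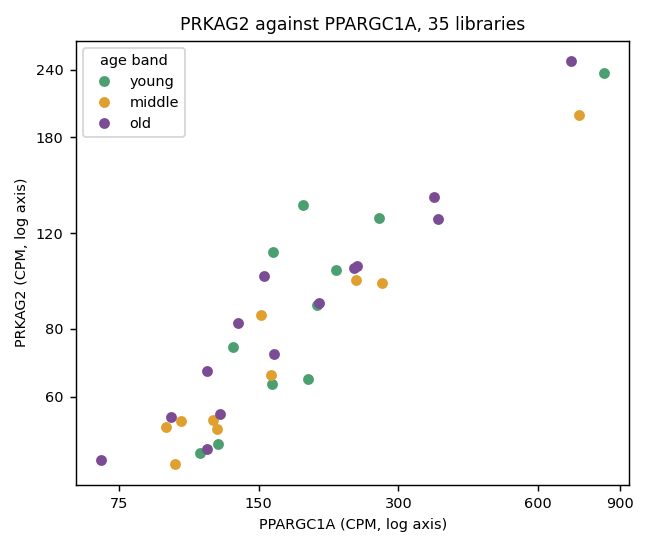
PRKAG2 against PPARGC1A in CPM (both axes log) for the 35 libraries, coloured by age band. The points form a single rising band (r = 0.93), and the 3 libraries of highest PPARGC1A, 1 from each age band, sit at the top right, at 198 to 249 CPM of PRKAG2.

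The wider pathway was read from lists on the same age slope, and 0 genes passed by edgeR's quasi-likelihood test in any of 11 lists of partners, regulators, targets and energy genes, where 0.0432% of all genes did. At an unadjusted p under 0.05 there were 12.9% of all genes, a share given beside the counts below for scale. The lists were chosen with earlier results of these data known, so the counts are a description and no test of a list. The genes named are those of smallest p in each list, whether or not the count of the list exceeds the share of all genes. Of 29 receptors and partners 18 had negative slopes and the median was −0.03, and 4 had an unadjusted p under 0.05. They were PPARG, the fat cell receptor, at 0.66 ± 0.197 log2 per 10 years, ESR2 and ESR1, the estrogen receptors, at −0.38 ± 0.126 and −0.40 ± 0.168, and PERM1, a muscle regulator induced by PGC-1 and ERR, at −0.29 ± 0.131. Of 17 corepressors and negative regulators 11 were negative, with a median of −0.02 and 6 at an unadjusted p under 0.05. FLCN had −0.29 ± 0.0957, HDAC4 −0.24 ± 0.0805, NRIP1, a repressor of energy genes, 0.39 ± 0.135, and NCOR1 0.08 ± 0.0330. Of 15 energy sensors 9 were negative, with a median of −0.06 and 2 at an unadjusted p under 0.05. There the AMP kinase subunits PRKAB2, PRKAA1, PRKAG1 and PRKAB1 had −0.39 ± 0.123, 0.15 ± 0.0653, −0.13 ± 0.0630 and 0.18 ± 0.0996.

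Slopes in most downstream lists, though not in that of PPARA targets, were mostly negative, beside 8033 of all 16202 genes. No list was fitted without old replicates 1 and 11. Of 20 genes for mitochondrial transcription and DNA maintenance 18 had negative slopes, the median was −0.11, and 6 were at an unadjusted p under 0.05, where 12.9% of all genes were. POLG2, the accessory subunit of the mitochondrial polymerase, had −0.44 ± 0.110 (adjusted p = 0.11), TWNK, its helicase, −0.21 ± 0.0790, TFB1M −0.27 ± 0.1005 and MTERF3 −0.21 ± 0.0823. Of 23 genes reported as ERR targets in mouse heart or muscle 21 were negative, with a median of −0.16 and 9 at an unadjusted p under 0.05. CKMT2, the mitochondrial creatine kinase, had −0.39 ± 0.107 (adjusted p = 0.122), TPM1 −0.19 ± 0.0741 and COX6A2 (a locus matched by product name) −0.28 ± 0.110, while PDK4, which closes pyruvate dehydrogenase, had 0.87 ± 0.360. The list was compiled by hand from general knowledge, and 3 of its members are also cardiomyocyte markers and 5 are chain genes.

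Of 24 PPARA targets 15 were positive, with a median of 0.04 and 5 at an unadjusted p under 0.05, where 12.9% of all genes were; the difference from the other lists was not tested. ANGPTL4, a secreted inhibitor of lipoprotein lipase, had 1.46 ± 0.452 (adjusted p = 0.172), PLIN2, a lipid droplet coat (matched by product name), 0.63 ± 0.257, TXNIP 0.45 ± 0.181, and PDK4, which is also on this list, 0.87 ± 0.360. Of 73 chain genes 72 were negative, with a median of −0.14 and 17 at an unadjusted p under 0.05, the smallest p being those of NDUFB4 (−0.20 ± 0.0627), NDUFB6 (−0.20 ± 0.0664), NDUFB5 (−0.22 ± 0.0841) and COX6C (−0.21 ± 0.0812, matched by product name). Negative slopes also stood at 15 of 24 for fatty acid oxidation (median −0.06), 23 of 25 for the tricarboxylic acid cycle (−0.13), 72 of 77 for the mitochondrial ribosome (−0.12) and 11 of 13 for mitochondrially encoded genes (−0.24). In these lists, in the same order, 2, 7, 22 and 2 genes were at an unadjusted p under 0.05. The genes of smallest p were ECI2 (−0.15), ETFA (−0.16), ACADL (0.78) and ACADS (−0.23) for oxidation and PDHB (−0.18), DLAT (−0.19), MDH2 (−0.19) and PDK4 for the cycle. For the ribosome they were MRPS18C (−0.24), MRPL44 (−0.23), MRPL32 (−0.22) and MRPS11 (−0.25), and among mitochondrially encoded genes ND3 (−0.31), ND5 (−0.30), COX1 (−0.31) and CYTB (−0.24), all slopes in log2 per 10 years. ACADL had a mean of only 0.377 CPM and an SE of 0.402, and neither it nor ACADS was at an unadjusted p under 0.05. Nor were COX1 (SE 0.219) and CYTB (SE 0.175). Cardiomyocyte markers had 21 of 22 negative with a median of −0.14, the same as for chain genes to 2 decimals. Immediate early genes had 28 of 29 positive with a median of 0.79, and ZFP36 (1.26, adjusted p = 0.0288) and SOCS3 (1.85, adjusted p = 0.0353) of that list passed by edgeR's quasi-likelihood test, while MYC had 1.28 and ATF3 2.02. Within the second sheet run, or with the cardiomyocyte score as a term, 0 of all genes rose, so both calls were lost. Without old replicates 1 and 11 only 1 of all genes rose, so both calls were not kept together. Of the 8 fitted adipocyte markers 8 were positive, with a median of 0.95, and their score was highest in old replicates 14 and 11 (2.16 and 2.09). Positive slopes stood at 9 of 10 for pericyte and smooth muscle, 8 of 12 for fibroblast and 8 of 12 for endothelial markers. They stood at 6 of 8 for T and B cell, 5 of 10 for macrophage and 0 of 2 for hepatocyte markers.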

How the data were processed

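Libraries were stranded and depleted of ribosomal RNA, per the labels' protocols. Tools named in the submitters' processing notes are bcl2fastq, HISAT2 and Partek, with no version. The authors deposited expected counts per RefSeq transcript, of which 29.4% of nonzero values are whole within a tolerance of 0.01, and a signal table equal to them times a factor per library (the TMM scaling its name gives). Transcript lengths are those deposited. The genome build and the strand setting of counting are not given in the sources used here, and no sequences were used.

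Counts of 89424 transcript lines were summed to gene names and rounded. Names of 25 genes, on 141 lines, had been turned into dates and were put back. Left out were 24 lines that name no gene, with 0.364% to 2.93% of counts. Total counts averaged 16879017 ± 3117356 (SD, n = 35). No pair of libraries in a band agreed within sampling noise (lowest chi-square per degree of freedom 14.9).

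Age was fitted as a linear term with edgeR 4.0.16 (TMM, filterByExpr, robust quasi-likelihood F test, Benjamini-Hochberg at 0.05) in R 4.3.3. Slopes are log2 per 10 years. Bands were split at 12 and 17 years. Group scores are means of standardised log2 CPM (prior count 2), and genes of a group were left out of the test against its own score. Transcript use was tested with diffSpliceDGE on rounded transcript counts. Values held constant are partial correlations by linear residuals, with no p. The members and the gene lists were chosen with earlier results of these data known. List entries were matched by symbol, or for 16 chain genes and a few others by the product name of a locus, and 5 of 78 chain entries had no match. In each pathway list, though not in cell type marker lists, the 4 genes with the smallest p were named, and for likeness the 4 highest r among genes of at least 1 CPM with a proper symbol.

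Alternatives were DESeq2 1.42.0 size factors and Wald test, library totals, other filters (none, or 1 CPM in 18 libraries), limma 3.58.1 voom, limma trend on log2 of the deposited signal plus 0.1, rank of age, sheet run or cardiomyocyte score as a term, and omission of libraries. Fits were checked on simulated counts before use. Python 3.11.15 with NumPy 2.4.6, pandas 2.3.3, SciPy 1.17.1 and matplotlib 3.10.9 made tables and figures.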

Additional observations from a re-analysis of the deposited data

Results flagged for a closer look

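Single values far from the others were tested in the middle band alone, with 10 libraries. Such a test marks about 1 in 20 groups by chance. The young and old bands were not tested, and they also held values apart from the rest. PPARGC1A had 833 CPM in young replicate 9, where the next highest young library, young replicate 11, had 272 CPM. ESRRB had 0.518 CPM in old replicate 11, where the next lowest old library, old replicate 3, had 1.94 CPM. Of the 10 members 2 were marked in the middle band. The highest library of ESRRG, middle replicate 6 at 109 CPM, lay 0.515 of the band's whole log2 range above the next. The highest library of PPARGC1A, middle replicate 4 at 736 CPM, lay 0.476 of the range above the next.

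The 24 lines without a gene name, which no comparison used, held up to 2.93% of the counts of a library.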

How the results depend on the processing

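Of the 10 members 0 were called on the age slope in any setting. With single libraries left out, the slope of ESRRB stayed negative (−0.75 without old replicate 2 to −0.48 without old replicate 11). That of PPRC1 stayed positive (0.27 without old replicate 11 to 0.53 without young replicate 9). ESRRB had −0.81 by limma trend, −0.47 with the cardiomyocyte score as a term and −0.45 without old replicates 1 and 11. PPRC1 had 0.20 with the cardiomyocyte score as a term and 0.16 without old replicates 1 and 11, a pair picked after seeing the data (as were the 3 libraries highest in PPARGC1A). NRF1 changed sign once sheet run entered the model, at −0.0013.

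Over all genes, leaving out single libraries gave 1 to 25 rising and 0 to 6 falling, against 5 and 2. Rising and falling counts were 15 and 1 with library totals, 27 and 8 with no filter, 1 and 1 with rank of age, 140 and 23 given sheet run, 0 and 0 within run 2 or with the cardiomyocyte score, and 61 and 26 with DESeq2. Rising counts were 1 by limma-voom, 1 by limma trend, and 1 (0 falling) without old replicates 1 and 11. Curvature gave 0 genes against 3 with a quadratic term, sheet run or the stricter filter, and transcript use 1 with the stricter filter and 13 by the F test against 4.

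For group scores the counts are of members, then of all genes where these moved. Fatty acid oxidation (2, 3611) gave 0 and 609 with the cardiomyocyte score, 1 and 1508 within run 2, and 1 and 2127 without the farthest pair or old replicates 1 and 11, which are the same libraries; DESeq2 size factors and the stricter filter gave 3 members. The tricarboxylic acid cycle (3, 3911) gave 1 and 1162 with the cardiomyocyte score, 1 and 1712 within run 2, and 1 with age or without old replicates 1 and 11; there PPRC1 reversed to 0.11 with the cardiomyocyte score. The mitochondrial ribosome (1, 3808) gave 2 with sheet run, 0 and 1048 with the cardiomyocyte score, 1625 genes within run 2, 3 members without the farthest pair and 2 with the stricter filter. Mitochondrially encoded genes (0, 4) gave 1 gene with age, the cardiomyocyte score or without old replicates 1 and 11, and 0 with sheet run, within run 2, without the farthest pair or with the stricter filter. Immediate early genes (2, 530) gave 0 and 79 with age, 1 with sheet run, 0 and 120 with the cardiomyocyte score, 1 and 225 within run 2, 1 and 189 without the farthest pair and 0 and 178 without old replicates 1 and 11. Cardiomyocyte markers (3, 3906) gave 5 with sheet run, 1 and 1884 within run 2, 1 and 2025 without the farthest pair and 1 and 2420 without old replicates 1 and 11. The causes were not tested, and within run 2 only 17 libraries were fitted.

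No paired analysis was possible because the labels give no replicate numbers and each library is from a separate animal. Depth limits ESRRB most, at 8 to 117 counts. Chain genes matched by product name, and members with overlapping or copied loci, carry an uncertainty that the counts do not show.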
